A study of Mus musculus with 4 samples.

Results

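The genes described here drive or mark the cell division cycle in mouse liver. They are the A, B, D and E cyclins, the cyclin-dependent kinases (Cdks) with their partners and inhibitors, the Cdc genes, the minichromosome maintenance (Mcm) genes, and the Polo-like, Aurora and Bub genes. Stmn1, Top2a, Mki67 and Pcna were added to them. Members are defined by platform gene symbol, with Cdc42 left out, and the definition uses no measured value. The symbols were, however, chosen with earlier results of these data known, so shares of members beside all genes are descriptive. The symbols found 80 members among 13954 genes named by probes with 1 symbol. Of these, 79 had a value on all 4 arrays and were tested among 13705 such genes. Ccnb3 had no value on the plain 24-week array and is not among the 79.

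The samples were livers of male mice of the inbred strain C57Bl/6J. Mice ate an atherogenic diet to which high fat was added ("high-fat" below), or an atherogenic diet without it ("plain"), for 24 or 6 weeks. Each liver RNA in Cy5 was hybridised together with chow liver RNA in Cy3. The chow mice had the same strain and sex, and a matching duration except on the plain 6-week array, whose label gives none. Each of the 4 conditions has 1 array without a dye swap. Diet was thus in the same dye on every array, and in diet over chow a dye effect on a gene cannot be told apart from diet. The sources used here do not give the diets' composition, the age of the mice, whether RNA was pooled, or whether arrays shared chow RNA.

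Cells that enter division commit in G1, when D cyclins with Cdk4 and Cdk6, and then E cyclins with Cdk2, inactivate the retinoblastoma proteins and free the E2F factors. In S phase the Mcm2 to Mcm7 helicase, loaded with the help of Cdc6 and started by Cdc7 and Cdc45, unwinds DNA while Pcna clamps the polymerases. In mitosis Cdk1 with B cyclins, Plk1 and the Aurora kinases build the spindle, the Bub proteins hold back division until chromosomes are attached, and the anaphase promoting complex ends it. Hepatocytes of an adult liver rarely divide, and S phase and mitotic genes are used as marks of cycling cells there and in immune and other cells that enter the organ.

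Every value below is a log2 ratio of diet over chow, or a difference between such ratios. The direction follows the dyes of the labels, and the step to log2 reads the deposited values as base 10 logarithms, which their spread supports and no source states. The SD over genes was 0.37 on the high-fat 24-week array, 0.35 on the high-fat 6-week array, 0.45 on the plain 24-week array and 0.52 on the plain 6-week array. Ratios hold no level, so liver markers cannot be checked by abundance, and in bulk tissue fewer cells of a type cannot be told apart from less RNA per cell. The test of diet over chow sets the mean of the 4 arrays against 0 in limma (3 residual degrees of freedom, two-sided, Benjamini-Hochberg over all 13705 genes), so its spread is between conditions and not between animals.

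Across both diets and durations, 12 of 79 members passed an adjusted p of 0.05 for diet over chow (15.2%), where 12.0% of all genes passed. Of the members 11 were higher than chow (13.9%, against 6.25% of all genes) and 1 was lower (1.27%, against 5.72% of all genes). The 11 were the cyclin Ccnb2, the kinases Cdk4 and Cdk6, the inhibitors Cdkn2b, Cdkn2c and Cdkn2d, the replication genes Mcm5, Mcm6 and Pcna, and Stmn1 and Cdkn2aipnl. The kinase Plk1 fell. Above 0 on all 4 arrays were 25 of 79 members, with 20.7% of all genes for comparison, and below 0 on all 4 were 11, with 20.0% of all genes. The median member ratio was 0.07, beside 0.00 for all genes.

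Of the 11 S phase members (Mcm2 to Mcm7, Mcm10, Cdc6, Cdc7, Cdc45 and Pcna), 3 rose (27.3%, against 6.25% of all genes), none fell, and the other 8 did not pass. Mcm6, a subunit of the replicative helicase, had log2 ratios of 0.29 in high-fat livers and 0.63 in plain livers at 24 weeks, and of 0.59 in high-fat livers and 0.58 in plain livers at 6 weeks. All 4 arrays lay above chow, with the high-fat 24-week array the lowest. The mean was 0.52 ± 0.09, with a limma SE over the 4 arrays here and below, which is 1.44-fold above chow (adjusted p = 0.0192). Mcm5, of the same ring, had 0.42 in high-fat livers and 0.29 in plain livers at 24 weeks, and 0.47 in high-fat livers and 0.40 in plain livers at 6 weeks. It was the steadiest of the 3, with a mean of 0.39 ± 0.08 (limma adjusted p = 0.0284). Pcna, the sliding clamp, had 0.32 in high-fat livers and 0.38 in plain livers at 24 weeks, and 0.38 in high-fat livers and 0.81 in plain livers at 6 weeks. In these values the plain 6-week array stood apart from the other 3, and the mean was 0.48 ± 0.11 (limma adjusted p = 0.0379). They average probes that disagree, at 0.86 and -0.09 on the plain 24-week array. By single probe the plain 6-week array stood less apart. Its value was 1.03 beside 0.86 on the plain 24-week array for the first probe. For the other probe it was 0.59 beside 0.48 on the high-fat 6-week array. The SE does not hold the disagreement of the probes.

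The other subunits of the helicase did not pass. Mcm4 was above 0 on all 4 arrays, between 0.03 and 0.18, with a mean of 0.13 ± 0.08. This narrow range averages 2 probes that disagree, at 0.87 and -0.52 on the plain 6-week array and 0.31 and -0.24 on the plain 24-week array. The SE does not hold that disagreement. Mcm2 had a mean of -0.02 ± 0.08, Mcm3 of -0.01 ± 0.09 and Mcm7 of -0.08 ± 0.09. Ratios of ring subunits ran from -0.08 to 0.52, although each active ring holds all of them. Mcm10, which helps to start unwinding, was below 0 on all 4 arrays, between -0.38 and -0.08 (mean -0.26 ± 0.09, limma adjusted p = 0.103). Of its 2 probes, however, 1 was above 0 in plain livers, at 0.16 at 24 weeks and 0.3 at 6 weeks. The loading factor Cdc6 had a mean of 0.14 ± 0.13, the kinase Cdc7 of -0.13 ± 0.08 and Cdc45 of 0.02 ± 0.08. Cdc6 split by diet and returns below. The call of Mcm6 ended without the high-fat 6-week array (adjusted p = 0.0695) and without the plain 24-week array (0.0985), while those of Mcm5 and Pcna ended whichever of the 4 arrays was left out (0.0541 to 0.126).

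The start regions of Mcm6 and Mcm5 are shown because both genes rose and because elements of cell cycle promoters are known by their letters. They are RefSeq windows of GRCm38.p6, from 250 bases before to 50 after the transcription start, on chr1:128359656-128359955 (minus strand) for Mcm6 and chr8:75109259-75109558 (plus strand) for Mcm5. Capitals mark every match, on either strand, to CCAAT (the box bound by NF-Y), TTTGAA (the core of the cell cycle homology region, CHR) or an E2F-type element (TTTCCCGC, TTTGGCGC or TTTCGCGC), and matches that overlap run together.
Mcm6: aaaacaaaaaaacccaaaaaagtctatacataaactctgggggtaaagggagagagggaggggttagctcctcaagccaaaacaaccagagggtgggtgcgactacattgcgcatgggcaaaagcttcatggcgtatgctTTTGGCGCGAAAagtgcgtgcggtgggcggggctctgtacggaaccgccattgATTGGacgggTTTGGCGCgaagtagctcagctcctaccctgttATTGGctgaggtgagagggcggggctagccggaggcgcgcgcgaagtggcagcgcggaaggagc
Mcm5: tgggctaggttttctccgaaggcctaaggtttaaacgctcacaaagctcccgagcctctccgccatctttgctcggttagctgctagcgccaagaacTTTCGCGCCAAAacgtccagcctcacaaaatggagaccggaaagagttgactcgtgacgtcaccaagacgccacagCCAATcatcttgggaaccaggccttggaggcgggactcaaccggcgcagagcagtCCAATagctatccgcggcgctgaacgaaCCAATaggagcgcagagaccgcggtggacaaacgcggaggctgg
Mcm6 holds 2 copies of TTTGGCGC, starting at -110 and -47 from the start site, and the first of them overlaps TTTCGCGC on the opposite strand. It also holds 2 CCAAT boxes on the opposite strand, at -57 and -14. Mcm5 holds TTTCGCGC at -153, overlapping TTTGGCGC on the opposite strand, and 3 CCAAT boxes. A match in these windows is a description of letters and shows no binding.

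The mitotic members spread more widely than the S phase members, through Ccnb2 and Plk1. Of 13 measured mitotic members, 1 rose (7.69%, against 6.25% of all genes) and 1 fell (7.69%, against 5.72%), so the counts were near the background, and both genes stood far from the rest. Ccnb2, the cyclin B2 partner of Cdk1, had log2 ratios of 0.53 in high-fat livers and 1.39 in plain livers at 24 weeks, and of 0.50 in high-fat livers and 1.39 in plain livers at 6 weeks. Its ratio was thus nearly equal at both durations within each diet, and both high-fat arrays lay below both plain arrays. That held for 32 of 79 members (40.5%, against 36.1% of all genes), so such separation is common here. The mean was 0.95 ± 0.19, which is 1.94-fold above chow (limma adjusted p = 0.026). Plk1, the Polo-like kinase that triggers mitotic entry and builds the spindle poles, had -2.19 in high-fat livers and -1.38 in plain livers at 24 weeks, and -1.61 in high-fat livers and -0.51 in plain livers at 6 weeks. It was below chow on every array, lowest with high fat at 24 weeks. The mean was -1.43 ± 0.25 (limma adjusted p = 0.0183), which is 2.69-fold lower than chow. Each of these genes rests on 1 probe.

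The 11 other mitotic genes had means between -0.34 and 0.26, and none passed. Top2a, the topoisomerase that untangles chromosomes, was above 0 on all 4 arrays, between 0.17 and 0.38 (mean 0.26 ± 0.08, limma adjusted p = 0.0871). It too averages 2 probes that disagree, at 0.97 and -0.58 on the plain 6-week array and 0.67 and -0.33 on the plain 24-week array. Bub3 (mean 0.25 ± 0.10) and Aurkb, the chromosomal passenger kinase (mean 0.25 ± 0.13), were above 0 on all 4 as well. Aurka, the kinase of the spindle poles, was below 0 on all 4, between -0.52 and -0.13 (mean -0.34 ± 0.09, adjusted p = 0.0654). The phosphatases Cdc25b and Cdc25c, which activate Cdk1, were also below 0 on all 4, with means of -0.15 ± 0.09 and -0.19 ± 0.09. Cdk1 itself had -0.02 in high-fat livers and -0.22 in plain livers at 24 weeks, and 0.16 in high-fat livers and -0.53 in plain livers at 6 weeks. Its cyclin partner Ccnb2 was above 0 on each of these arrays. Means of the checkpoint genes Bub1 and Bub1b were 0.03 ± 0.09 and -0.14 ± 0.10, and Cdc20, which switches on the anaphase promoting complex, had 0.20 ± 0.12. Mki67, the Ki-67 coat protein of mitotic chromosomes, had a mean of 0.06 ± 0.20, since its plain arrays lay above 0 and its high-fat arrays below. That value rests on 1 of its 2 probes, as the other lacked a value on the high-fat 6-week array. Without the plain 24-week array neither Ccnb2 (adjusted p = 0.121) nor Plk1 (0.0996) passed. Without the plain 6-week array Ccnb2 did not pass (0.0599), and without the high-fat 6-week array Plk1 did not (0.0509).

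The windows of Ccnb2 and Plk1 are shown because these genes moved in opposite directions. They lie on chr9:70421505-70421804 (minus strand) and chr7:122159185-122159484 (plus strand) of GRCm38.p6, with capitals as above.
Ccnb2: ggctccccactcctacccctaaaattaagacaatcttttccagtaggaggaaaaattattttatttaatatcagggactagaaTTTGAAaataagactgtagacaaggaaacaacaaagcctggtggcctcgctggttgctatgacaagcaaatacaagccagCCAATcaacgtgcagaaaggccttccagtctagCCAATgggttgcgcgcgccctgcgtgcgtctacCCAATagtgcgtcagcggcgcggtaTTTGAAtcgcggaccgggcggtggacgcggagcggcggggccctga
Plk1: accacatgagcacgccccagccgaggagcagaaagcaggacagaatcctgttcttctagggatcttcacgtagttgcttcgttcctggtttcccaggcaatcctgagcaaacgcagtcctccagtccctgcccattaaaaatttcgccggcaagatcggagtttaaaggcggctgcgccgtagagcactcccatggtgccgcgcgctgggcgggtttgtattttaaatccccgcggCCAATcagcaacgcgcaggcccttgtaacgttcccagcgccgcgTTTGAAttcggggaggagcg
Both hold CCAAT and TTTGAA just around the start site. In Ccnb2 there are 3 CCAAT boxes at -87, -54 and -21 and TTTGAA at 5, with another TTTGAA at -167. In Plk1 there is CCAAT at -14 and TTTGAA at 31.

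**Figure D1:**
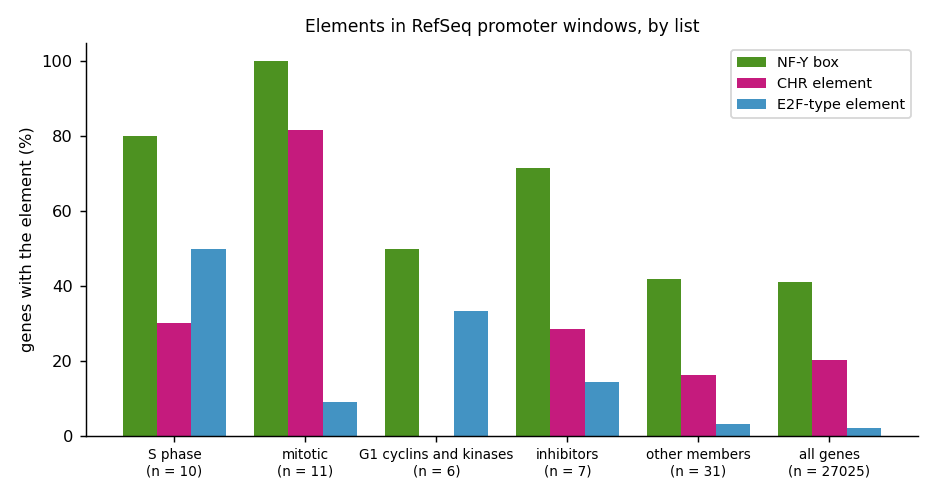
Share of genes, in percent, with an NF-Y box (CCAAT), a CHR element (TTTGAA) or an E2F-type element in RefSeq windows of GRCm38.p6, for 5 groups of members and, at the right, all genes of the table; n is the number of genes with a window. CHR elements stand in 30% of S phase and 81.8% of mitotic genes, and E2F-type elements in 50% of S phase and 9.09% of mitotic genes.

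RefSeq windows were found for 68 of the 80 members. CCAAT was in the window of 8 of 10 S phase genes and 11 of 11 mitotic genes, beside 41.1% of all 27025 genes. TTTGAA was found for 3 of 10 S phase genes (30%), 9 of 11 mitotic genes (81.8%) and 20.2% of all genes. An E2F-type element was found for 5 of 10 S phase genes (50%), 1 of 11 mitotic genes (9.09%) and 2.12% of all genes. Each of these shares was above that of all genes, over 10 and 11 genes, and the lists differed in which element was frequent. All genes here are the 27025 with a RefSeq window, on the chip or not, and not the 13705 tested. Ccnb2 and Plk1 share CCAAT and TTTGAA while their ratios had opposite signs.

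**Figure D2:**
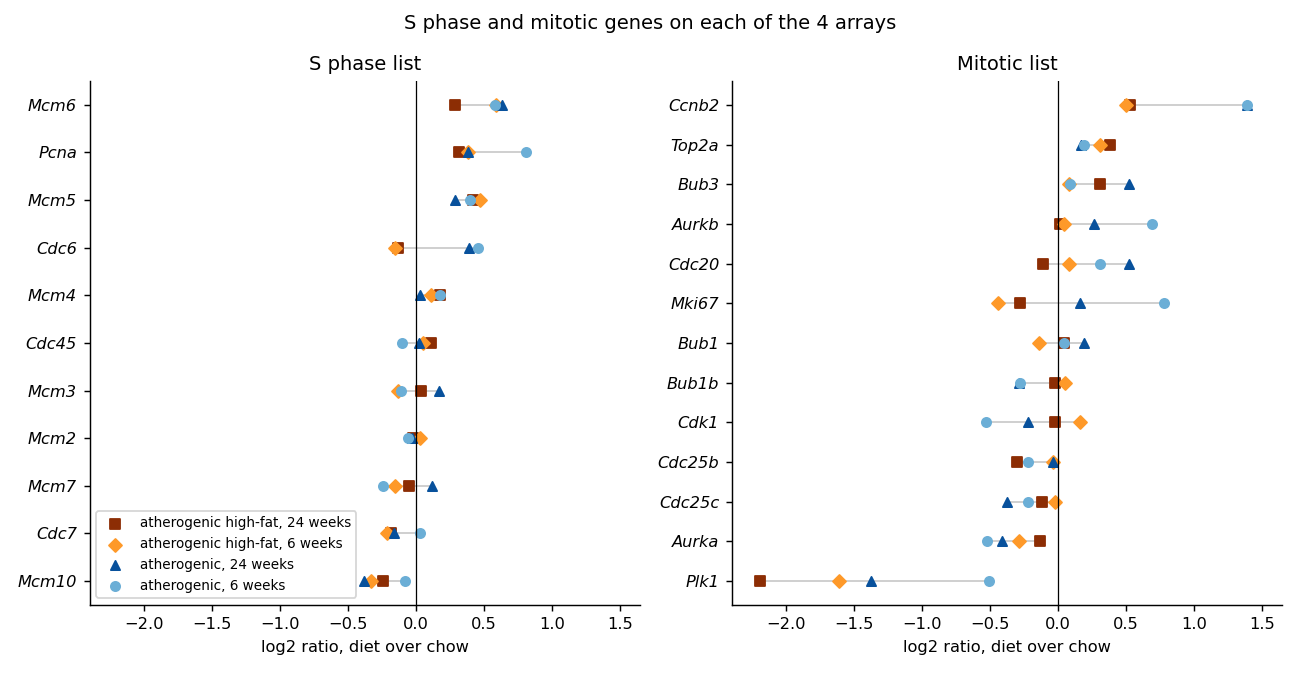
Log2 ratio of diet over chow for each S phase gene (left) and each mitotic gene (right) on the 4 arrays; squares and diamonds are high-fat arrays at 24 and 6 weeks, triangles and circles plain arrays at 24 and 6 weeks. The S phase means stay between -0.26 and 0.52, while Ccnb2 (0.95) and Plk1 (-1.43) stand far from the other mitotic genes.

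Set side by side, S phase and mitotic genes had nearly the same centre and a different spread. The median of the list means was 0.02 for S phase and 0.03 for mitotic genes. On the high-fat 24-week array the list medians were 0.04 (S phase) and -0.02 (mitotic), and on the high-fat 6-week array 0.03 and 0.04. On the plain 24-week array they were 0.12 and 0.16, and on the plain 6-week array 0.03 and 0.04. The difference, S phase minus mitotic, was thus 0.05, -0.01, -0.04 and 0.00 in that order, and its SD over the arrays was 0.04. It had no steady sign. Gene means had an SD of 0.26 over the S phase list and 0.53 over the mitotic list, with lowest and highest values of -0.26 and 0.52 for S phase and -1.43 and 0.95 for mitotic genes. Without Ccnb2 and Plk1, left out after their values were seen, the mitotic means ran from -0.34 to 0.26. The wider mitotic spread thus rests on these genes. It was not seen in the longer lists described below. Means there ran from -1.04 to 0.75 over 44 replication genes and from -0.33 to 0.58 over 39 mitotic genes. No test is given for the lists as such.

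Upstream of replication, the kinases Cdk4 and Cdk6 rose, while Cdk2 and the D and E cyclins did not pass. Of 9 measured G1 genes 2 rose (22.2%, against 6.25% of all genes) and none fell (5.72% of all genes did). Cdk4 had log2 ratios of 0.70 in high-fat livers and 0.57 in plain livers at 24 weeks, and of 0.47 in high-fat livers and 0.62 in plain livers at 6 weeks. Its arrays lay within 0.23 of each other, without separation by diet, and the mean was 0.59 ± 0.08 (limma adjusted p = 0.0105). Cdk6, the other partner of the D cyclins, had 0.29 in high-fat livers and 0.51 in plain livers at 24 weeks, and 0.32 in high-fat livers and 0.76 in plain livers at 6 weeks. Both high-fat values lay below both plain values, and the mean was 0.47 ± 0.11 (adjusted p = 0.0371). The D cyclins had means of -0.09 ± 0.08 (Ccnd1), 0.12 ± 0.11 (Ccnd2) and 0.10 ± 0.08 (Ccnd3). The E cyclins had 0.13 ± 0.09 (Ccne1) and -0.20 ± 0.08 (Ccne2), and their kinase Cdk2 had 0.04 ± 0.09. Cdc25a, the phosphatase that activates Cdk2, was above 0 on all 4 arrays (mean 0.28 ± 0.11, adjusted p = 0.132). The call of Cdk4 ended without the plain 24-week array (adjusted p = 0.0615), and that of Cdk6 whichever of the 4 was left out (0.0681 to 0.143).

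Among the 8 measured Cdk inhibitors 3 rose (37.5%, against 6.25% of all genes) and none fell, with a list median of 0.04. The genes that rose were Cdkn2b, Cdkn2c and Cdkn2d. The families below are parts of this list. Of the INK4 inhibitors, which bind Cdk4 and Cdk6, 3 of 4 rose (75%, against 6.25% of all genes), with a family median of 0.56. Of the CIP/KIP inhibitors, which act on cyclin-Cdk complexes more widely, 0 of 3 passed in either direction in limma, none at an unadjusted p under 0.05 either, and their median was -0.15. The fourth INK4 gene, Cdkn2a, had a mean within the range of the CIP/KIP genes (-0.18 to 0.13), and the families were not tested against each other. Cdkn2d (p19, INK4d) had log2 ratios of 0.71 in high-fat livers and 0.86 in plain livers at 24 weeks, and of 0.81 in high-fat livers and 1.37 in plain livers at 6 weeks. Every array was above chow, and the mean was 0.94 ± 0.12 (limma adjusted p = 0.00918), a 1.91-fold rise. Cdkn2c (p18) had 0.46 in high-fat livers and 0.66 in plain livers at 24 weeks, and 0.40 in high-fat livers and 0.66 in plain livers at 6 weeks, with a mean of 0.55 ± 0.09 (adjusted p = 0.0157). Cdkn2b (p15) had 0.35 in high-fat livers and 0.56 in plain livers at 24 weeks, and 0.43 in high-fat livers and 0.98 in plain livers at 6 weeks. Both high-fat arrays were below both plain arrays for each of these 3 genes, as for 36.1% of all genes, and none of the 3 passed for high fat. The mean of Cdkn2b was 0.58 ± 0.12 (adjusted p = 0.0306), and its 2 probes had means of 0.87 and 0.29.

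The other inhibitors did not pass. Cdkn2a had a mean of -0.05 ± 0.11, Cdkn1b (p27) of -0.18 ± 0.11, Cdkn1c (p57) of -0.15 ± 0.09 and the Cdk phosphatase Cdkn3 of -0.16 ± 0.12. Cdkn1a (p21), which p53 induces, had -0.56 in high-fat livers and 0.57 in plain livers at 24 weeks, and 0.29 in high-fat livers and 0.22 in plain livers at 6 weeks. Its high-fat 24-week array was below chow while the other 3 were above. Leaving out the plain 24-week array ended the calls of Cdkn2d (adjusted p = 0.0608), Cdkn2c (0.0849) and Cdkn2b (0.126), and leaving out the high-fat 6-week array that of Cdkn2b (0.0631). Of the anaphase promoting complex, 0 of 3 measured subunits passed in limma, although Cdc27 had an unadjusted p of 0.0369. Their means were 0.20 ± 0.15 (Cdc26), 0.13 ± 0.13 (Cdc16) and -0.20 ± 0.08 (Cdc27, below 0 on all 4 arrays).

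**Figure D3:**
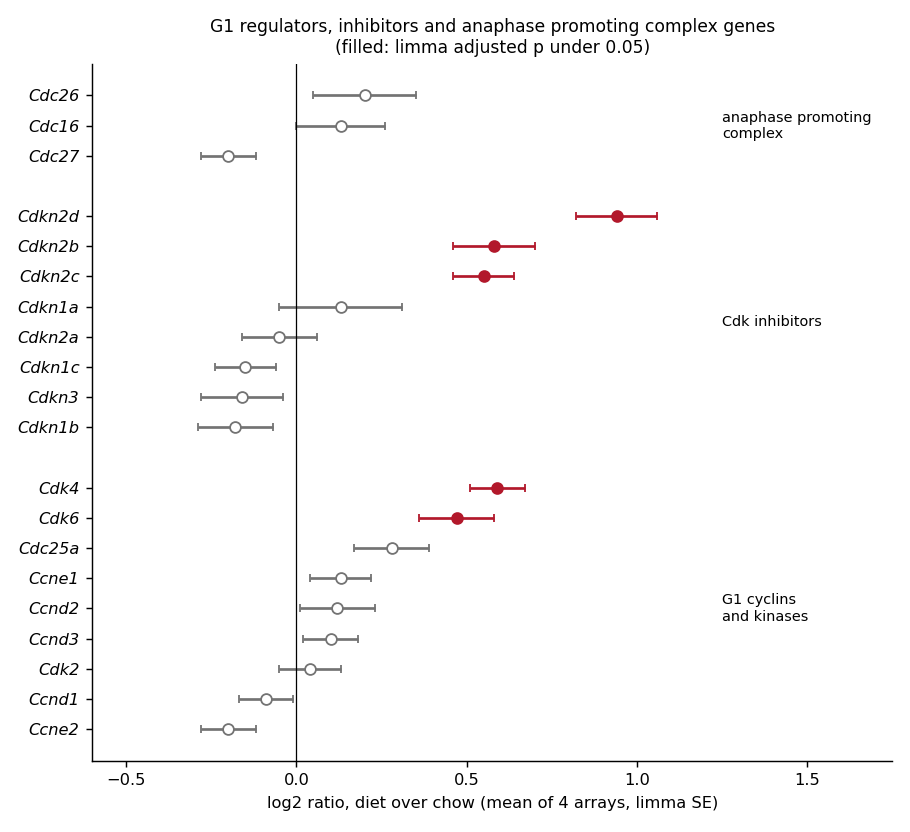
Mean log2 ratio of diet over chow over the 4 arrays, with limma SE bars, for genes of the anaphase promoting complex (top), Cdk inhibitors (middle) and G1 cyclins and kinases (bottom); filled points passed an adjusted p of 0.05. Cdkn2d (0.94), Cdkn2b (0.58), Cdkn2c (0.55), Cdk4 (0.59) and Cdk6 (0.47) are the filled points.

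Of the 35 measured members in none of these lists, 2 rose (5.71%, against 6.25% of all genes) and none fell (5.72% of all genes did). Stmn1, the microtubule-destabilising protein stathmin, had log2 ratios of 0.89 in high-fat livers and 1.11 in plain livers at 24 weeks, and of 0.71 in high-fat livers and 1.32 in plain livers at 6 weeks. It had the highest mean of the 79 members, 1.01 ± 0.12 (limma adjusted p = 0.00612), a 2.01-fold rise, and its high-fat arrays lay below its plain arrays. Without the plain 24-week array its adjusted p was 0.0511. Cdkn2aipnl had a mean of 0.41 ± 0.10 (adjusted p = 0.0476), and it did not pass whichever of the 4 arrays was left out (0.0803 to 0.163), or with unnamed probes in the fit (0.0546). Ccna2, the cyclin of S phase and G2, had a mean of 0.12 ± 0.16, and the germ line cyclin Ccna1 of -0.15 ± 0.10. Of the other Polo-like kinases, the stress-responsive Plk2 was above 0 on all 4 arrays (mean 0.35 ± 0.12, adjusted p = 0.117), and Plk3 and the centriole kinase Plk4 had means of -0.09 ± 0.13 and -0.18 ± 0.15. None of them had a ratio near that of Plk1. Mcm8 and Mcm9, which act in recombination, had means of -0.13 ± 0.09 and 0.09 ± 0.11, and Mcm3ap had 0.24 ± 0.09.

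By fold on single arrays, few members stood out. On the high-fat 24-week array no member was at least 2-fold above chow, where 0.963% of all genes were, and Plk1 was at least 2-fold below (1.55% of all genes). The same held on the high-fat 6-week array, where 0.671% of all genes were that far above and 1.33% that far below. On the plain 24-week array Ccnb2 and Stmn1 were at least 2-fold above chow (2.14% of all genes were) and Plk1 at least 2-fold below (1.29%). On the plain 6-week array Ccnb2, Stmn1 and Cdkn2d were at least 2-fold above chow (4.31%), and no member was that far below (1.64% of all genes).

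Several probes were on the chip for 27 members, and they show how far 1 probe can stand from another of the same gene. The median gap between the lowest and highest probe mean of a gene was 0.30, the gap was over 0.5 for 7 genes, and for 12 genes the probes lay on both sides of 0. Plk4 had the widest gap, with probe means from -0.51 to 0.37, and the 2 probes of Top2a had -0.16 and 0.69. In the mean of its probes neither gene passed for diet over chow, while by the probe of largest size both did (Top2a 0.69, adjusted p = 0.0122; Plk4 -0.51, adjusted p = 0.0148). Among the members that passed for diet over chow, only Pcna and Cdkn2b had more than 1 probe. In a limma fit over single probes, chosen after seeing the data, 1 probe of each passed and the other did not. Those of Pcna had means of 0.68 (adjusted p = 0.0282) and 0.27 (0.236). The probes of Cdkn2b had 0.87 (adjusted p = 0.0217) and 0.29 (0.121). Mcm4, with -0.13 and 0.38, had probes of opposite sign.

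**Figure D4:**
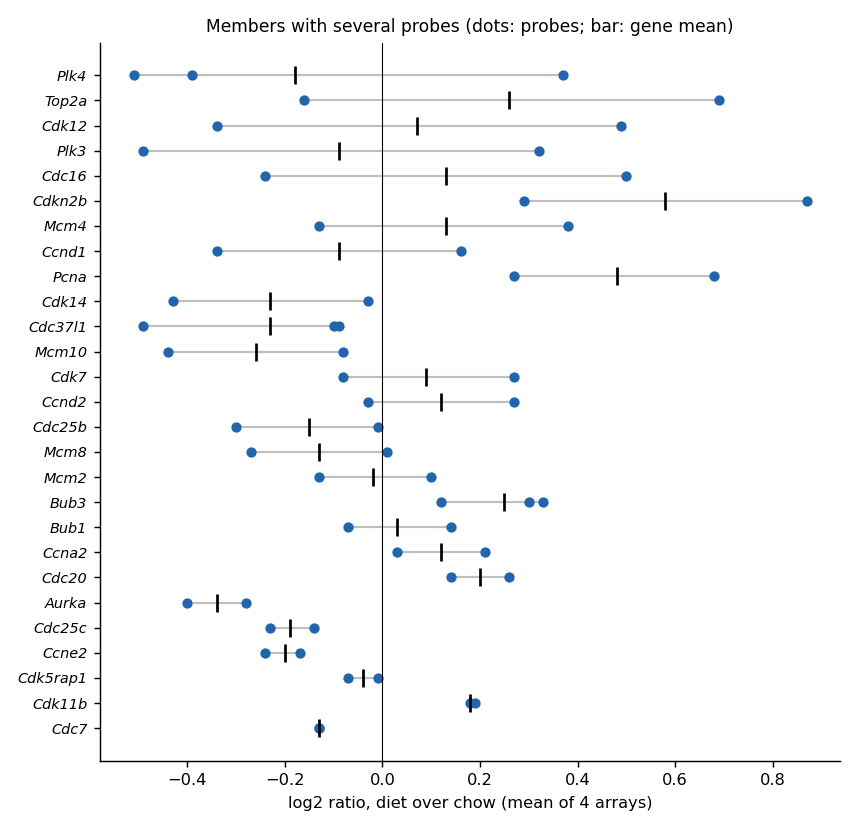
Mean log2 ratio of diet over chow over the 4 arrays for each probe (dots) of the 27 members with several probes, with the gene mean as a bar, ordered by the gap between probes. Plk4 and Top2a have the widest gaps, and 12 genes have probes on both sides of 0.

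The second comparison asks what high fat added to the atherogenic diet, as the mean of the differences high-fat minus plain at 24 and 6 weeks, from an additive model of high fat and duration. High fat went with lower ratios of several S, G2 and mitotic genes. Of 79 members 8 passed (10.1%), near the 11.2% of all genes: 7 were lower with high fat (8.86%, against 7.25% of all genes) and 1 was higher (3.99% of all genes were). Lower in both pairs were 39 of 79 members (49.4%, against 43.3% of all genes). Members as a group thus differed little from the background here. The model leaves 1 residual degree of freedom, and on simulated data its high-fat test made more false calls than its nominal rate. In a model with high fat alone, chosen after seeing the data, none of the 8 calls held (adjusted p 0.0745 to 0.158), 21 members had an unadjusted p under 0.05, and 8 genes passed in all.

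Plk1 differed by -0.81 at 24 weeks and -1.10 at 6 weeks (mean -0.95 ± 0.15, limma adjusted p = 0.0194). Ccnb2 differed by -0.86 and -0.88 at the same durations (mean -0.87 ± 0.14, adjusted p = 0.0196). The mitotic gene that rose and the mitotic gene that fell against chow were therefore both lower with high fat, which put Ccnb2 nearer to chow and Plk1 farther from it. Ccna2 had log2 ratios of -0.26 in high-fat livers and 0.55 in plain livers at 24 weeks, and of -0.25 in high-fat livers and 0.42 in plain livers at 6 weeks (mean difference -0.74 ± 0.14, adjusted p = 0.0254). Mki67 had -0.28 in high-fat livers and 0.16 in plain livers at 24 weeks, and -0.44 in high-fat livers and 0.78 in plain livers at 6 weeks (mean difference -0.83 ± 0.20, adjusted p = 0.0429). Its other probe, without a value on the high-fat 6-week array, was not tested. That probe was above chow with high fat, at 0.1 in high-fat livers and 1.6 in plain livers at 24 weeks, and had 0.89 in plain livers at 6 weeks. Cdc6 had -0.13 in high-fat livers and 0.39 in plain livers at 24 weeks, and -0.15 in high-fat livers and 0.46 in plain livers at 6 weeks (mean difference -0.56 ± 0.14, adjusted p = 0.0451). In the values tested, Ccna2, Mki67 and Cdc6 were above chow on both plain arrays and below chow on both high-fat arrays. In all, 10 of 79 members had that pattern, as did 1485 of 13705 genes (10.8%), and 3 members had the opposite pattern, as did 1181 genes (8.62%).

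Plk4 had log2 ratios of -0.54 in high-fat livers and 0.22 in plain livers at 24 weeks, and of -0.48 in high-fat livers and 0.10 in plain livers at 6 weeks (mean difference -0.67 ± 0.14, adjusted p = 0.0332). Its probes disagree, with differences of -1.04, -0.95 and -0.02. Cdk2ap2, a protein that binds Cdk2, had -0.14 in high-fat livers and 0.47 in plain livers at 24 weeks, and -0.17 in high-fat livers and 0.40 in plain livers at 6 weeks (mean difference -0.59 ± 0.14, adjusted p = 0.0405). Cdk5rap3 was higher with high fat, at 0.58 in high-fat livers and 0.12 in plain livers at 24 weeks, and 0.69 in high-fat livers and 0.00 in plain livers at 6 weeks (mean difference 0.58 ± 0.14, adjusted p = 0.0458). Despite its name, Cdk5rap3 is known for a role in protein modification by UFM1. Of genes that did not pass, Cdk11b differed by -0.44 and -0.46, Cdk5rap1 by 0.42 and 0.29, and Cdk16 by 0.25 and 0.29, at 24 and 6 weeks. No G1 gene, inhibitor or subunit of the anaphase promoting complex passed for high fat in limma, although 1, 2 and 2 of them had an unadjusted p under 0.05.

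By list, 1 of 11 S phase genes (Cdc6) and 3 of 13 mitotic genes (Ccnb2, Plk1 and Mki67) passed for high fat, all lower. That is 9.09% of the S phase and 23.1% of the mitotic genes, against 7.25% of all genes. The median difference was -0.06 for S phase genes, -0.11 for mitotic genes and -0.06 for all genes. Some of these genes average probes that differed in opposite directions, so a gene value near 0 does not show that its probes were flat. Such probes had -0.61 and 0.50 for Mcm10, -0.69 and 0.42 for Cdc7, and -0.42 and 0.51 for Mcm4. For Mcm2 they had -0.23 and 0.33, and for Top2a -0.27 and 0.59. Not every mitotic gene was lower: Cdk1 differed by 0.21 at 24 weeks and 0.69 at 6 weeks, Bub1b by 0.28 and 0.33, and Aurka by 0.28 and 0.24. Lower in both pairs were 4 of 11 S phase and 7 of 13 mitotic genes. The narrower spread of ratios on the high-fat arrays, given above, moves with this comparison. With every array scaled to a common spread, the difference of Ccnb2 was -0.45 and did not pass (adjusted p = 0.0603), and the other 7 calls held.

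**Figure D5:**
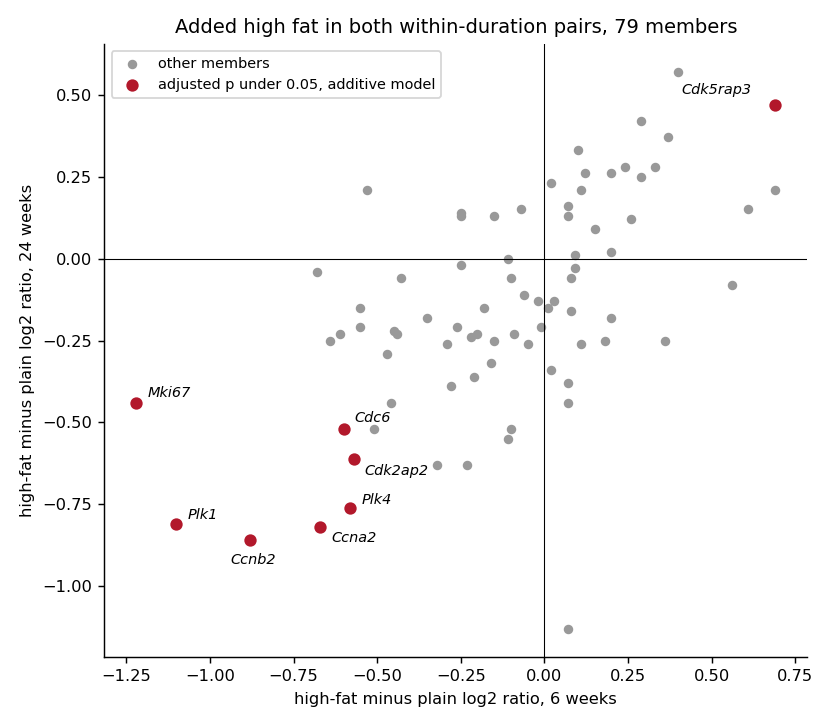
Difference in log2 ratio, high-fat minus plain, at 6 weeks (horizontal axis) and 24 weeks (vertical axis) for the 79 members; larger named points passed an adjusted p of 0.05 in the additive model. The 7 lower genes sit at the lower left and Cdk5rap3 at the upper right, and 39 members lie below 0 on both axes.

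The third comparison sets 24 weeks against 6 weeks in the same additive model. Of all 13705 genes 0 passed (0%), so no member did. An unadjusted p under 0.05 was found for 1353 genes and 7 members, robust eBayes called 0 genes, and duration as the only term called 0 genes. Plk1 had the largest difference of the 79, at -0.58 in high-fat livers and -0.87 in plain livers (mean -0.72 ± 0.15, limma adjusted p = 0.259). Cdc26 differed by -0.41 in high-fat livers and -0.40 in plain livers (mean -0.40 ± 0.14, adjusted p = 0.42). Cdkn2a, an inhibitor that accumulates with age in many tissues, differed by 0.58 and 0.21 (mean 0.39 ± 0.15, adjusted p = 0.475). Cdk18 differed by 0.85 and 0.11, Cdc5l by 0.18 and 0.68 and Cdk13 by 0.26 and 0.42 in high-fat and plain livers. Lower at 24 weeks in both diets were Cdk12 (-0.25 and -0.45), Cdk5 (-0.27 and -0.17) and Cdk3 (-0.19 and -0.36). At 24 against 6 weeks the median difference was -0.03 for S phase genes and 0.01 for mitotic genes.

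Other genes of the same pathway, from lists beyond the chosen symbols, show where the members stand. Of 44 measured replication genes 4 rose against chow (9.09%, against 6.25% of all genes) and 6 fell (13.6%, against 5.72%), with a median of 0.14. Those that rose were Rpa3 (0.75 ± 0.18), a subunit of the single-strand binding complex, the ligase Lig1 (0.56 ± 0.11), the histone mRNA factor Slbp (0.43 ± 0.08) and Tyms (0.36 ± 0.09), which makes thymidylate. Those that fell were the E2F factors E2f4 (-1.04 ± 0.20), E2f3 (-0.63 ± 0.11) and E2f6 (-0.42 ± 0.09), the retinoblastoma relative Rbl1 (-0.49 ± 0.09), Uhrf1 (-0.65 ± 0.09), which maintains DNA methylation, and Gins2 (-0.43 ± 0.09). E2f4 is known chiefly as a repressor in resting cells. Gins2 is a part of the replicative helicase and fell while Mcm5 and Mcm6 rose. The other Gins genes did not pass, with means of 0.40 ± 0.10 for Gins1 (limma adjusted p = 0.0501), 0.22 ± 0.11 for Gins4 and -0.16 ± 0.10 for Gins3.

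With high fat, 6 of the 44 replication genes were lower (13.6%, against 7.25% of all genes) and none higher (3.99% of all genes were). The outermost were Orc6 (-1.51) and Pola1 (-0.97) on the lower side, and Orc2 (0.31) and Ung (0.32), which did not pass, on the higher side. Orc6, of the origin recognition complex, had log2 ratios of -0.14 in high-fat livers and 1.06 in plain livers at 24 weeks, and of -0.23 in high-fat livers and 1.60 in plain livers at 6 weeks. Of 39 further mitotic genes, 1 rose against chow (Cdca3, 0.44 ± 0.11) and none fell, with a median of 0.14. With high fat 8 of the 39 were lower (20.5%, against 7.25% of all genes) and 1 was higher, and 29 were lower in both pairs (74.4%, against 43.3% of all genes). Their median difference was -0.36. Cks2, a subunit of Cdk complexes, had -1.17 in high-fat livers and 0.23 in plain livers at 24 weeks, and -0.70 in high-fat livers and 0.66 in plain livers at 6 weeks (mean difference -1.38). Ube2c, the ubiquitin carrier of the anaphase promoting complex, had a mean difference of -0.92. Nusap1 (0.67) and Ncaph (0.45) lay at the higher end. Among the mitotic members 53.8% were lower in both pairs; this difference between the lists was not tested. The limit of the additive model given above holds for these counts too.

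Markers of other liver and immune cells moved alongside. Of 10 macrophage markers 6 rose against chow (60%, against 6.25% of all genes). Above 0 on all 4 arrays were 8 of them, where 20.7% of all genes were. Macrophage list medians were 0.91 in high-fat livers and 1.0 in plain livers at 24 weeks, and 0.67 in high-fat livers and 1.17 in plain livers at 6 weeks. Of 8 lymphocyte and pan-leukocyte markers 3 rose (37.5%, against 6.25% of all genes), namely Cd53, Cd48 and Nkg7. The others did not pass, with means of 0.65 (Cd3d), 0.32 (Ptprc), 0.29 (Cd79a), -0.02 (Cd3e) and -0.25 (Ms4a1, below 0 on all 4 arrays). Medians of the 8 markers were 0.21 in high-fat livers and 0.48 in plain livers at 24 weeks, and 0.16 in high-fat livers and 0.61 in plain livers at 6 weeks. Lower with high fat in both pairs were 7 of 8 (87.5%, against 43.3% of all genes). These leukocyte medians run the same way as Ccnb2, Ccna2 and Mki67, while Cdk1, Aurka, Bub1b and Cdc25c run the other way. Bile duct medians were also lower with high fat, at 0.10 in high-fat livers and 0.91 in plain livers at 24 weeks. At 6 weeks they were -0.16 in high-fat livers and 0.33 in plain livers. Stellate cell markers rose in 5 of 8 cases (62.5%) and bile duct markers in 1 of 5 (20%), against 6.25% of all genes. In limma 0 of 6 endothelial and 0 of 6 hepatocyte markers passed against chow (1 and 2 at an unadjusted p under 0.05). With high fat, in the additive model, 3 of 6 hepatocyte markers passed: Ttr (-1.81, limma adjusted p = 0.00374) and Alb (-1.53, adjusted p = 0.00836) were lower and Pck1 (0.96, adjusted p = 0.0187) was higher. The bile duct marker Krt19 (-0.75, adjusted p = 0.0252) and the macrophage marker Cd14 (-0.68, adjusted p = 0.0307) were also lower, and no leukocyte, stellate or endothelial marker passed, although 4, 2 and 1 of them had an unadjusted p under 0.05. The hepatocyte genes Alb and Ttr sit at values that many probes share, so their sizes cannot be read. The part of these cells in the member results was not tested. The genes outside the members whose ratios on the 4 arrays lay nearest to the mitotic median were Mapk7, Ccdc51, Med8, Prr12 and Tmem101, at Euclidean distances of 0.049 to 0.057, and all lay close to 0 there.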

How the data were processed

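Amplified liver RNA was measured on 4 two-colour oligonucleotide arrays (AceGene Mouse Oligo Chip 30K), per the labels. Spots were read with GenePix Pro 4.1 and LOWESS-normalized in GeneSpring 7.2, per the series' design text. The deposited values are signed log10 ratios as read here; base and direction are not stated for them, no spot intensities were used, and how background was corrected is not given in the sources used here. Adjusted p-values are the same for any base.

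Values were converted to log2. Of 28845 probes, 27870 had 4 values and 17637 named 1 gene; 64 named several and 11144 were not listed. A gene is the mean of its probes. Tests used limma 3.58.1 in R 4.3.3 (lmFit, eBayes) and were tested on simulated data. Members and lists, which name every measured member of 5 role lists and the outermost of the rest, were chosen with earlier results of these data known. Promoters are RefSeq windows of GRCm38.p6. Alternatives were centring, scaling, other probe rules, other models, unnamed probes, and leaving out each array. The number of arrays limits precision; none is a replicate of another.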

Additional observations from a re-analysis of the deposited data

Results flagged for a closer look

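For 8 members the effect of diet differed between the high-fat and the plain diet by the high-fat term of the additive model (limma, adjusted p under 0.05 over all genes). The differences in log2 ratio were -0.95 for Plk1, -0.87 for Ccnb2, -0.83 for Mki67, -0.74 for Ccna2, -0.67 for Plk4, -0.59 for Cdk2ap2, -0.56 for Cdc6 and 0.58 for Cdk5rap3. Each had the same sign at 24 and at 6 weeks. The test itself favours that, since its residual is the gap between the differences at both durations. With high fat as the only term none of the 8 passed. Leukocyte and bile duct marker medians and the spread of all ratios differed between the diets as well, and their part in these differences was not tested.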

How the results depend on the processing

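The 12 members that passed for diet over chow each had the same sign on all 4 arrays. Leaving out an array could therefore not turn a sign, and other models or unnamed probes leave the mean as it is. Centring and scaling turned no sign either. The dye order was the same on all 4 arrays, so a shared sign does not separate diet from dye. Without the plain 6-week array 7 of the 12 calls held, and without the high-fat 6-week array 5. Without the high-fat 24-week array 8 held, and without the plain 24-week array 0 (21 members had an unadjusted p under 0.05 there). Leaving out each array gave 0 to 7 members higher and 0 to 2 lower, 122 to 594 genes higher and 164 to 585 lower, and S phase minus mitotic medians of -0.06 to 0.07. A model with diet and duration terms called 23 members higher and 5 lower, and 2846 genes higher and 2373 lower. With unnamed probes in the fit, 1285 features were higher and 1238 lower against chow, and 2263 higher and 1606 lower with high fat. Scaling the arrays gave 2 members lower against chow, 2 higher with high fat, a mitotic median of -0.05 and a difference of S phase minus mitotic of 0.08. With the largest probe of a gene, 4 members were lower against chow and 3 higher with high fat, and the high-fat difference of Plk4 was -0.02 (adjusted p = 0.952). Centring ended the high-fat calls of Cdc6 (adjusted p = 0.0572) and Mki67 (0.0552), and robust eBayes that of Mki67 (0.0522).

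Chosen after seeing the data were 2 alternatives. Single probes gave 1484 higher and 1396 lower against chow, 3 of them member probes that were lower, and 2440 higher and 1971 lower with high fat, with 5 and 13 member probes. High fat as the only term called 0 genes higher and 8 lower, with 0 members in either direction. Why calls ended was not tested. Without 1 array, high fat and duration keep 1 pair and no test. No paired analysis was possible because replicate numbers pair no samples here: each condition has 1 array, and the additive model already compares the diets within each duration.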
